A study of Mus musculus with 4 samples.

Results

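Accessibility of 6 genes of the JAK-STAT pathway was compared between fetal and adult mammary epithelium: the kinase gene Jak2, the transcription factor genes Stat5a, Stat5b, Stat3 and Stat6, and the inhibitor gene Socs2. They were chosen by name, 6 of 21883 annotated genes whose chromatin accessibility could be counted. The readout was single-nucleus ATAC-seq, in which the transposase Tn5 cuts open DNA and the reads of each nucleus carry a barcode. Nuclei came from EpCAM+ Lin- cells sorted from the mammary gland of WT CD1 mice, an outbred strain. The fetal group was taken at E18 (2 libraries of 882 and 1695 nuclei) and the adult group at 8 weeks (2 libraries of 2465 and 2804 nuclei). No genotype change or treatment is given for either group. Whether a library pools several animals is not given in the sources used here, so p-values apply to these libraries only. Those of the stage tests over whole libraries measure the spread between libraries.

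Prolactin is the hormone of alveolar growth and milk production. Its receptor has no enzyme activity of its own and works through the attached kinase Jak2, which phosphorylates Stat5a and Stat5b. The phosphorylated proteins pair, enter the nucleus and bind DNA at palindromes of the form TTCNNNGAA. Stat5a is the form most needed for alveolar development and lactation, Stat5b is its close copy, Stat3 is needed for the cell death and remodelling of involution after weaning, and Stat6 acts behind the interleukin-4 and interleukin-13 receptors in luminal differentiation. Socs2 is a target of Stat5 that acts back on growth hormone and prolactin signalling. Accessibility was measured here, not RNA, protein or phosphorylation.

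For each gene the reads over its annotated span plus 2000 bases on each side were counted, and levels are given as reads per 1000000 reads in gene windows (CPM). In GRCm38.p6 coordinates, the same build as the mm10 of the reads, Stat5b (chr11:100780731-100859004, minus strand), Stat5a (chr11:100859351-100885169, plus strand) and Stat3 (chr11:100886806-100939594, minus strand) are neighbours. Only 346 bases separate the Stat5a and Stat5b spans and 1636 bases separate Stat5a and Stat3, so the windows share 3654 and 2364 bases. Stat6 (chr10:127642955-127660987, plus strand) and Socs2 (chr10:95383903-95417321, strand not listed in the tables used) lie on chromosome 10 and Jak2 (chr19:29251803-29313095, plus strand) on chromosome 19. The study's deposited lists hold 8 promoter regions and 60 distal regions of 1000 bases at or near these genes, of 19204 and 145453 in all. The deposited table of motif scores has 427 columns, and 5 named for STAT proteins were used here.

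The 250 bases before 1 RefSeq start each of Stat5a, Stat5b and Jak2 are printed because the deposited promoter regions at these starts gave the reads discussed below. Capitals mark CG dinucleotides, and each line runs 5′ to 3′ on the gene's strand. The Stat5a stretch, chr11:100860234-100860483 on the plus strand, held 21 CG and 68.0% G or C. The Stat5b stretch, chr11:100850582-100850831 on the minus strand, held 40 CG and 82.0%. The Jak2 stretch, chr19:29251553-29251802 on the plus strand, held 37 CG and 80.8%. The table lists another start for Stat5a (5 CG, 57.6% G or C) and for Stat5b (5 CG, 46.4%), not printed. The median over all 32851 RefSeq promoters was 6 CG.
Stat5a: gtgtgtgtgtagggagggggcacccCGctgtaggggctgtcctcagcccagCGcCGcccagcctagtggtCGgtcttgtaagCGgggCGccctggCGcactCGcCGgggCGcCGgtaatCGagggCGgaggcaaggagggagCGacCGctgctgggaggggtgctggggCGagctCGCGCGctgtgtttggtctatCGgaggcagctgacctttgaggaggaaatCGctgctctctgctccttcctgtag
Stat5b: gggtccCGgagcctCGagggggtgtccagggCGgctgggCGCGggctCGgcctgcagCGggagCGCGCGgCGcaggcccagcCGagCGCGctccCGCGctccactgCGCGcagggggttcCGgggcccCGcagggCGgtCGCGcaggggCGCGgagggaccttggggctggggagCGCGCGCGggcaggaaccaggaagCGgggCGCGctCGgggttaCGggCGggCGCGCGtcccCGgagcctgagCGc
Jak2: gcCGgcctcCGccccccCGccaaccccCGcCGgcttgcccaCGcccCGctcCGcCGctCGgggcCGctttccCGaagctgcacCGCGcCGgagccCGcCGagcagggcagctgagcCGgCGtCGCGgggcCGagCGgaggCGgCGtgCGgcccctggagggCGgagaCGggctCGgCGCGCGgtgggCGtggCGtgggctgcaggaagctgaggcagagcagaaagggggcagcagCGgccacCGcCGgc

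The STAT palindrome TTCNNNGAA, which reads the same on both strands, was searched in the 300 bases around each RefSeq start. It was present in 8.30% of all 32851 promoters and in 0 of the 7 entries of the 5 members with an entry (Socs2 has none in the table). Of 43 other pathway genes with an entry, 7 held it in any of their entries. These are counts of genes, so they cannot be set against the share of promoters. For comparison, the sites of 2 inhibitor genes induced by STAT proteins are printed with the matches in capitals. Cish, on chromosome 9, held a pair, the first at its start, and Socs3, on chromosome 11, held a match 154 bases before its start (position -154). A match describes letters only, and its absence from this window says nothing of binding elsewhere.
Cish: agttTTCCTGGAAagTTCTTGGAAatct
Socs3: agccTTCTTAGAAggga

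The 4 libraries held between 6028168 and 19304830 reads of listed nuclei, with medians between 4420 and 7488 reads per nucleus, and 0 barcodes were shared between libraries. The authors' table puts nuclei in 14 classes. In adults, classes 3 and 7 each raised 7 of 9 luminal progenitor markers, classes 2 and 11 raised 8 and 6 of 8 mature luminal markers, and classes 1 and 8 raised 10 of 10 basal markers, so these pairs are called luminal progenitor-like, mature luminal-like and basal-like. Fetal class 4 raised 7 of 10 basal and class 12 raised 5 of 10, while class 9 raised 5 of 9 luminal progenitor markers and class 5 raised 4. Class 6 raised 7 of 7 stromal markers. Outside class 6, summed stromal markers lay between 113 and 228 CPM, immune markers between 29.2 and 58.7 CPM and endothelial markers between 90.2 and 146 CPM.

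Stat5a and Stat5b were less accessible in fetal than in adult epithelium, and the other 4 members did not pass the test, although Stat3 and Jak2 did under some other settings. Stat5a had 59.9 and 57.1 CPM in fetal replicates 1 and 2 (277 and 670 reads) and 100.6 and 86.1 CPM in adult replicates 1 and 2 (1063 and 1230 reads). Both fetal libraries lay below both adult libraries. The fetal level was 58.5 ± 1.94 CPM and the adult level 93.4 ± 10.3 CPM (SD, n = 2 each), a log2 difference of -0.68 (SE 0.12, edgeR adjusted p = 0.00166). Stat5b had 93.0 and 96.7 CPM in fetal epithelium and 159.5 and 137.7 CPM in adult epithelium, again without overlap. Its log2 difference was -0.65 (SE 0.11, edgeR adjusted p = 0.00142). A library sum mixes all classes, so a change in the share of nuclei per class and a change within a class cannot be told apart in it.

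Because the Stat5a and Stat5b windows share bases, both genes were recounted from reads that fall in a single gene window. The log2 differences were then -1.71 for Stat5a and -0.996 for Stat5b (edgeR adjusted p = 4.32e-05 and 1.76e-04). The shared stretch holds the promoter region at the printed Stat5a start, so this recount leaves that region out. The log2 difference of that region itself was -0.18. Without reads in promoter regions, a recount chosen after seeing the data, the Stat5a difference was -1.06 (edgeR adjusted p = 7.76e-05). Both genes passed under all 13 other settings tried.

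Jak2, the kinase, had fetal values of 120.0 and 111.5 CPM and adult values of 137.6 and 136.1 CPM. The stages did not overlap, and the log2 difference of -0.25 (SE 0.11) had an edgeR adjusted p of 0.11. Stat3 had 140.1 and 128.8 CPM in fetal and 184.3 and 151.9 CPM in adult libraries, a log2 difference of -0.33 (SE 0.12, edgeR adjusted p = 0.058). Stat3 passed without adult replicate 2 (-0.48, edgeR adjusted p = 0.00108), with no filter on reads (-0.35, 0.0429), with the span alone (-0.37, 0.0471) and without reads in promoter regions (-0.43, 0.0365). Stat6 was the member whose stages overlapped, with 115.9 and 102.2 CPM in fetal and 116.6 and 101.3 CPM in adult libraries. In most of the 52 other pathway genes the stages did not overlap either, and the share over all gene windows was not counted. Non-overlap of 2 against 2 libraries therefore does not set the members apart. Socs2 was the member with the higher fetal value, 151.8 and 145.7 CPM against 135.2 and 127.1 CPM, and its log2 difference of 0.17 (SE 0.10) had an edgeR adjusted p of 0.27. In all, 2 of 6 members passed, beside 22.2% of the 18804 gene windows tested. The members' median log2 difference was -0.29, beside 0.011 over all windows.

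**Figure D1:**
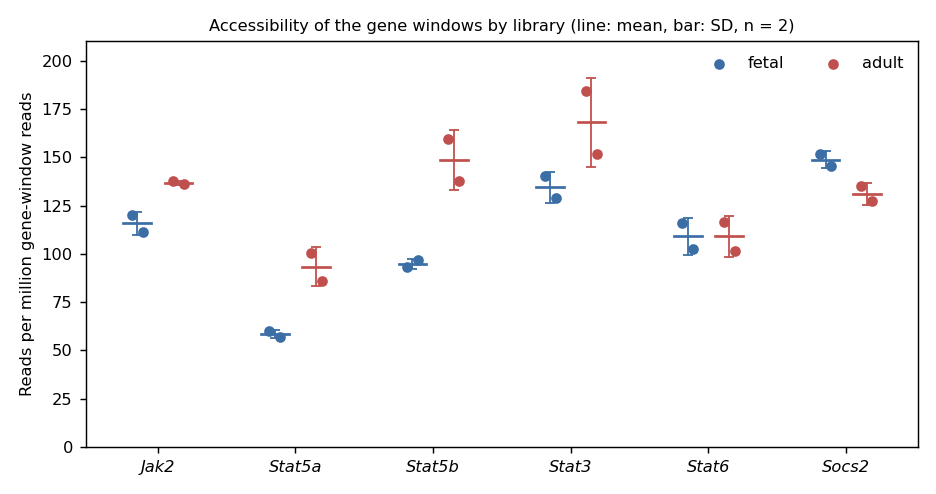
Reads per 1000000 gene-window reads (CPM, vertical axis) for the 6 genes in the 2 fetal and 2 adult libraries; points are libraries, lines means and bars 1 SD (n = 2). The fetal Stat5a and Stat5b points lie below every adult point of the same gene, while the Stat6 points of both stages overlap.

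Per kilobase of window, Stat6 was the most accessible member in adults, at 4.95 CPM per kb, and Stat5b the least, at 1.81. Socs2 (3.51), Stat5a (3.13), Stat3 (2.96) and Jak2 (2.10) lay between. In fetal libraries the order was Stat6 (4.95 CPM per kb), Socs2 (3.97), Stat3 (2.37), Stat5a (1.96), Jak2 (1.77) and Stat5b (1.15). Stat6 also has the shortest window of the members (22.0 kb) and Stat5b the longest (82.3 kb). Without division by length, the adult means were 109.0 CPM for Stat6 and 148.6 CPM for Stat5b. The part of window length in these orders was not tested.

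Among 52 other genes of the pathway, listed with earlier results of these data known, 13 passed the stage test, 3 higher and 10 lower in fetal libraries, beside the 22.2% of all gene windows. Receptor genes made up 6 of the lower ones, of 14 listed. Prlr, the prolactin receptor and also one of the mature luminal markers, had 56.0 and 71.2 CPM in fetal and 187.8 and 188.9 CPM in adult libraries, a log2 difference of -1.56 (edgeR adjusted p = 7.56e-06). Il13ra1, a chain of the interleukin-4 and interleukin-13 receptor that signals to Stat6, had 29.2 and 24.9 CPM against 59.6 and 58.3 CPM (log2 difference -1.15, edgeR adjusted p = 1.23e-04). Osmr, the oncostatin M receptor that signals to Stat3, had 56.0 and 76.4 CPM against 125.9 and 145.7 CPM (log2 difference -1.02, edgeR adjusted p = 3.40e-04). Il4ra, Il6st and Egfr were the other receptor genes that passed. Of the 3 other kinases Jak1 was lower and Jak3 higher, of 2 other STAT genes Stat4 was higher, and of 16 inhibitors Ptpn1, a phosphatase, was lower. Of 17 targets and partners, Bcl2l1 and Cebpd were lower. Stat4 did not pass without fetal replicate 1 (log2 difference 0.41, edgeR adjusted p = 0.0976) or 2 (0.47, 0.0893), Jak3 without fetal replicate 2 (0.64, 0.0818), and Cebpd without fetal replicate 2 (-0.35, 0.216). Egfr did not pass without fetal replicate 1 (-0.35, 0.155), fetal replicate 2 (-0.53, 0.0549) or adult replicate 2 (-0.29, 0.0625). Csn3, a milk casein gene, was higher, with 38.3 and 55.9 CPM in fetal and 12.3 and 16.9 CPM in adult libraries (log2 difference 1.69, edgeR adjusted p = 1.16e-04; 0.99 when the span alone was counted).

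At the promoters the stage difference was small for most members, and 3 of 8 promoter regions passed, beside 21.5% of 18570 tested. The median log2 difference was -0.32, beside -0.0022 over all. The region at the RefSeq start of Stat5a printed above, chr11:100859808-100860807, had 87.4 and 89.6 CPM (per 1000000 reads in promoter regions) in fetal and 95.5 and 100.7 CPM in adult libraries. Its log2 difference of -0.18 had an edgeR adjusted p of 0.43. The region at the printed Stat5b start, chr11:100849878-100850877, gave 32.3 and 34.2 CPM against 44.3 and 38.2 CPM (log2 difference -0.33, edgeR adjusted p = 0.32). The Stat3 promoter region had a log2 difference of -0.22 (edgeR adjusted p = 0.18; -0.36 with 0.0487 without adult replicate 2), and those of Stat6 -0.31 and -0.99 (0.15 for both).

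Socs2 had a pair of promoter regions that differed between the stages in opposite directions. The region chr10:95416204-95417203, at the higher-coordinate end of the gene, had 136.2 and 135.8 CPM in fetal and 90.2 and 90.4 CPM in adult libraries. It was higher in fetal epithelium (log2 difference 0.56, SE 0.14, edgeR adjusted p = 0.00143). The region chr10:95414933-95415932, further inside the span, had 103.9 and 84.1 CPM in fetal and 159.2 and 134.5 CPM in adult libraries, and was lower (log2 difference -0.70, SE 0.14, edgeR adjusted p = 1.09e-04). Neither pair of stages overlapped, and both calls held under every setting tried for promoter regions. In adult classes the inner region had 189.7 and 148.1 CPM in mature luminal-like, 143.9 and 156.6 CPM in luminal progenitor-like and 65.8 and 82.2 CPM in basal-like nuclei, values given without a test. The outer region had 105.1 and 83.7, 69.4 and 87.7, and 107.0 and 96.1 CPM in the same order.

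The Jak2 promoter region, chr19:29251093-29252092, had 169.3 and 147.3 CPM in fetal and 184.5 and 202.2 CPM in adult libraries, a log2 difference of -0.33 (SE 0.12, edgeR adjusted p = 0.035). It no longer passed without fetal replicate 1 (-0.41, edgeR adjusted p = 0.0555), fetal replicate 2 (-0.21, 0.46) or adult replicate 2 (-0.28, 0.17). It was also lost with a mean of at least 50 reads (-0.30, edgeR adjusted p = 0.0538) and in DESeq2 (-0.33, DESeq2 adjusted p = 0.0868).

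Distal regions inside and beside the genes were tested in the same way. Of the 60, 55 had enough reads to test and 19 passed, 4 higher and 15 lower in fetal libraries, beside 35.3% of 122865 distal regions, a share close to that of the members' regions. A region with many reads at a single stage could reach the filter through that stage, so its stage test describes sizes only. The counts and medians here include such regions. Without adult replicate 1, 2 were higher and 9 lower of 49 tested, and with a mean of at least 50 reads 2 were higher and 6 lower of 19. The shares of all distal regions under those other settings are not given here, so their counts describe the settings only. In the main test the median log2 difference was -0.60, beside -0.013 over all. For Stat5a 6 of 8 were lower and for Stat5b 6 of 12. For Stat3 4 of 13 were lower, 2 of them counted for Stat5a too. Stat6 had 1 of 5 lower, Jak2 2 of 12 higher and Socs2 2 of 7 higher. Distances below are counted from the gene's annotated start, or for Socs2 from the higher-coordinate end of its span.

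In Stat5a the largest differences lay in the first part of the gene. The region chr11:100870284-100871283, 11.4 kb after the start, had 6 and 8 fetal reads and 94 and 104 adult reads. The log2 difference in level was -3.16 (SE 0.46, edgeR adjusted p = 8.81e-07). The region chr11:100863763-100864762, 4.91 kb after the start, had 0 and 6 fetal reads and 65 and 66 adult reads (log2 difference -3.87, SE 0.62, edgeR adjusted p = 4.37e-06; -8.71 without fetal replicate 2, a fitted value over a fetal side with 0 reads and no bound). The region chr11:100861500-100862499, 2.65 kb after the start, had 10 and 8 reads against 88 and 111 (log2 difference -2.74, SE 0.45, edgeR adjusted p = 8.07e-06; -1.78 without fetal replicate 2). At all 3 the adult counts exceeded the fetal ones. All 3 reached the filter on reads through their adult reads, so their stage tests describe sizes only. Fetal replicate 2 held 15801908 reads of listed nuclei and adult replicate 1 held 13588107.

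Stat5b showed the same direction in the body of the gene. The region chr11:100825675-100826674, 32.8 kb after the start, had 0 and 5 reads in fetal and 86 and 97 in adult libraries (log2 difference -4.58, SE 0.58, edgeR adjusted p = 5.74e-08; -9.18 without fetal replicate 2, a fitted value over a fetal side with 0 reads and no bound). The region chr11:100799041-100800040, 59.5 kb after the start, had 6 and 1 reads against 91 and 125 (log2 difference -4.19, SE 0.56, edgeR adjusted p = 1.61e-07; -6.50 without fetal replicate 1 and -2.62 without fetal replicate 2). The region chr11:100833080-100834079 had 9 and 10 reads against 90 and 129 (log2 difference -2.82, edgeR adjusted p = 1.87e-06). A further region, chr11:100816510-100817509, had 0 and 1 reads against 26 and 28 (edgeR adjusted p = 6.87e-04). All of these Stat5b regions reached the filter on reads through their adult reads, so their stage tests describe sizes only. The region with the most reads near Stat5b, chr11:100790760-100791759, had 22 and 98 reads against 96 and 104, and its log2 difference of -0.23 did not pass (edgeR adjusted p = 0.60).

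Stat3 combined regions that were lower in fetal nuclei with strong regions that did not pass. The region chr11:100899982-100900981, 39.1 kb after the start, had 6 and 28 reads in fetal and 119 and 77 in adult libraries (log2 difference -2.03, SE 0.41, edgeR adjusted p = 1.57e-04). The region chr11:100915938-100916937 had 4 and 15 reads against 57 and 64 (log2 difference -2.09, edgeR adjusted p = 7.83e-04). Both of these regions reached the filter on reads through their adult reads, so their stage tests describe sizes only. The most-read Stat3 region, chr11:100893118-100894117, had 68 and 143 reads against 143 and 225, and its log2 difference of -0.12 did not pass. For Stat6, the region after the gene's end, chr10:127661655-127662654, had 172 and 439 fetal reads and 368 and 464 adult reads and did not pass either (log2 difference 0.18, edgeR adjusted p = 0.47). The Stat6 region that was lower, chr10:127635805-127636804, 6.65 kb before the start (position -6.651 kb), had 33 and 120 reads against 203 and 202 (log2 difference -0.87, SE 0.25, edgeR adjusted p = 0.0061). It did not pass without fetal replicate 1 (-0.70, edgeR adjusted p = 0.0551) and without adult replicate 1 (-0.70, 0.0793).

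Socs2 and Jak2 held the distal regions that were higher in fetal nuclei. The Socs2 region chr10:95385545-95386544, at the far end of the gene, had 53 and 188 reads in fetal and 32 and 60 in adult libraries, or 21.8 and 29.7 CPM against 5.55 and 7.71 CPM. Its log2 difference was 1.96 (SE 0.30, edgeR adjusted p = 1.53e-06). The Socs2 region chr10:95399794-95400793 had 35 and 73 reads against 8 and 26 (log2 difference 2.37, SE 0.44, edgeR adjusted p = 4.04e-05). This region reached the filter on reads through its fetal reads, so its stage test describes sizes only. In Jak2, chr19:29265093-29266092 had 75 and 176 reads against 76 and 136 (log2 difference 0.91, SE 0.25, edgeR adjusted p = 0.0037). It did not pass without adult replicate 1 (0.67, edgeR adjusted p = 0.0745). The Jak2 region chr19:29300512-29301511, 49.2 kb after the start, had 24 and 95 reads against 26 and 49 (log2 difference 1.23, SE 0.37, edgeR adjusted p = 0.0085), and did not pass without fetal replicate 2 (0.91, 0.163) or adult replicate 1 (0.96, 0.11). A pair of well-read regions did not pass: chr19:29253355-29254354 in Jak2, with 47 and 96 reads against 123 and 149 (log2 difference -0.27, edgeR adjusted p = 0.46), and chr10:95398171-95399170 in Socs2, with 37 and 92 against 63 and 113 (0.21, 0.62).

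**Figure D2:**
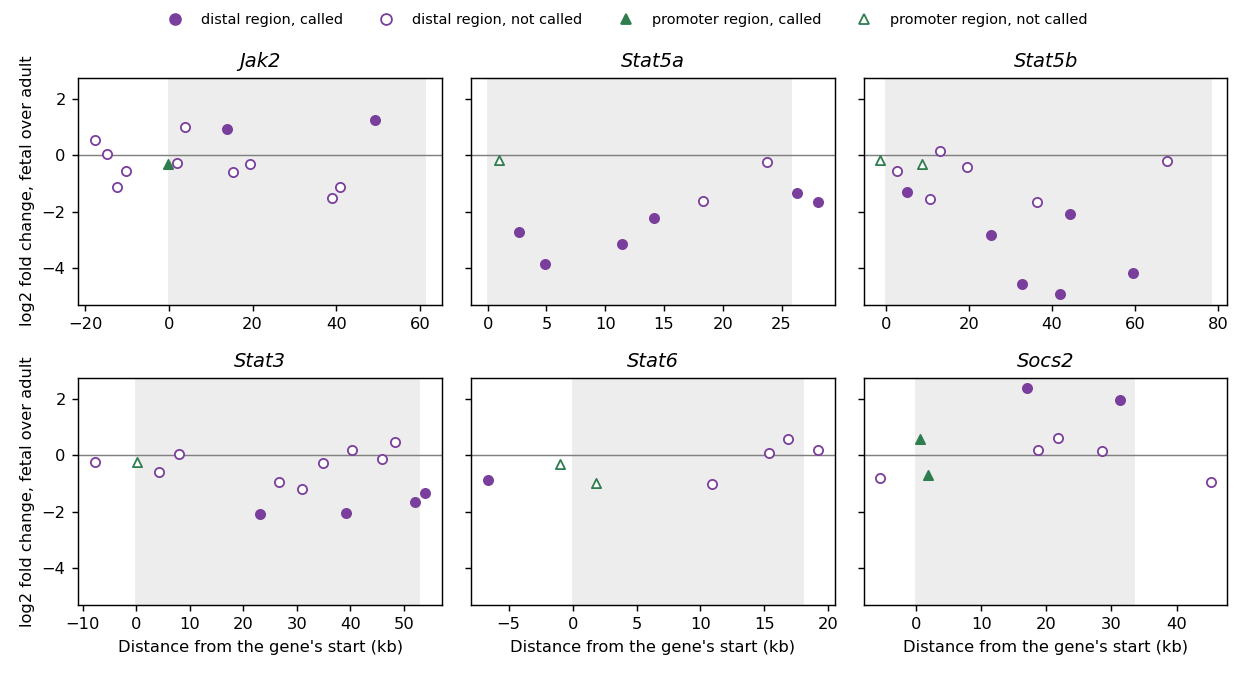
Log2 fetal over adult difference (vertical axis) of each tested region near the 6 genes against its distance in kb from the gene's start, or for Socs2 from the higher-coordinate end of its span (horizontal axis); circles are distal regions, triangles promoter regions, filled symbols passed the edgeR test and grey marks the gene span. The filled circles of Stat5a and Stat5b lie below 0, and those of Socs2 and Jak2 above 0.

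Among adult classes the members had different peaks: Stat5a and Jak2 were highest in mature luminal-like nuclei and Stat3 in luminal progenitor-like nuclei. The classes were drawn by the authors from these same reads, and the sums of a library share its nuclei preparation. Library was a block, so the tests between classes weigh a difference against the spread left after the library effect. That spread was estimated over all library and class sums together, fetal ones included. Stat5a had 133.1 and 114.9 CPM in mature luminal-like nuclei (adult replicates 1 and 2), 74.9 and 65.9 CPM in luminal progenitor-like nuclei and 64.0 and 47.8 CPM in basal-like nuclei. The mature luminal-like level lay above both others in each replicate. It exceeded the basal-like level by a log2 difference of 1.10 (SE 0.19, edgeR adjusted p = 1.48e-06), and 1.94 from reads of a single window, which leave out the Stat5a promoter region. The luminal progenitor-like level was 0.81 lower than the mature luminal-like one (log2 difference -0.81, SE 0.17, edgeR adjusted p = 1.30e-04; -1.58 from reads of a single window). That call was lost without adult replicate 1 (-0.81, edgeR adjusted p = 0.0599) and with classes 7, 11 and 8 alone (-0.45, 0.135).

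Stat5b had 171.5 and 167.1 CPM in mature luminal-like, 157.8 and 121.4 CPM in luminal progenitor-like and 109.1 and 91.4 CPM in basal-like nuclei. Both luminal groups lay above the basal-like one. The mature luminal-like difference from basal-like was 0.69 on the log2 scale (SE 0.15, edgeR adjusted p = 1.69e-04; 0.56 with 0.109 without adult replicate 2). The luminal progenitor-like difference was 0.41 (SE 0.16, edgeR adjusted p = 0.046) and was lost without adult replicate 1 (0.34, 0.476) or 2 (0.47, 0.268). Between the 2 luminal groups the log2 difference of -0.28 did not pass (edgeR adjusted p = 0.16), but passed with classes 3, 2 and 1 alone (-0.48, 0.0284).

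Stat3 had 228.6 and 201.8 CPM in luminal progenitor-like, 171.9 and 144.0 CPM in mature luminal-like and 126.4 and 103.1 CPM in basal-like nuclei. The order was the same in both replicates. Luminal progenitor-like nuclei exceeded basal-like ones by 0.85 on the log2 scale (SE 0.14, edgeR adjusted p = 8.59e-07), a call kept under all 13 settings tried, with values from 0.48 to 1.29. They exceeded mature luminal-like ones by 0.46 (SE 0.13, edgeR adjusted p = 0.0038). The second call was lost without adult replicate 1 (0.48, edgeR adjusted p = 0.14) or 2 (0.43, 0.184) and with classes 3, 2 and 1 alone (0.16, 0.48). Mature luminal-like exceeded basal-like nuclei by 0.39 (edgeR adjusted p = 0.0215), lost without either adult replicate (0.42 with 0.179 and 0.36 with 0.30).

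Jak2, the kinase of the prolactin receptor, had 167.9 and 165.6 CPM in mature luminal-like, 118.2 and 117.0 CPM in basal-like and 109.7 and 112.4 CPM in luminal progenitor-like nuclei. Both replicates placed the mature luminal-like group at the top. The luminal progenitor-like level was lower by a log2 difference of -0.58 (SE 0.14, edgeR adjusted p = 0.00100). The call was lost without adult replicate 1 (-0.57, edgeR adjusted p = 0.0989) or 2 (-0.59, 0.0788), and the difference was -0.14 with classes 7, 11 and 8 alone and -0.90 with classes 3, 2 and 1 alone. The mature luminal-like level exceeded the basal-like one by 0.43 (edgeR adjusted p = 0.0185), lost without adult replicate 1 (0.44, 0.186) or 2 (0.42, 0.256) and at 0.15 with classes 7, 11 and 8 alone. Within each pair of classes the share of reads in promoter regions differed: it was 17.5 to 18.9% in class 8 and 25.5 to 25.8% in class 1, 18.6 to 21.1% in class 11 and 23.3 to 25.7% in class 2, and 20.9 to 21.3% in class 3 and 26.4 to 27.6% in class 7. The part of that share in these results was not tested. In a recount without reads in promoter regions, 3 members passed as higher in luminal progenitor-like than in basal-like nuclei. In luminal progenitor-like over mature luminal-like nuclei 2 passed as higher and 2 as lower. In mature luminal-like over basal-like nuclei 4 passed as higher. The shares of all gene windows in that recount are not given here, so these counts describe the setting only.

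Stat6 had 129.1 and 112.9 CPM in mature luminal-like, 114.8 and 114.7 CPM in luminal progenitor-like and 100.9 and 65.4 CPM in basal-like nuclei. Both luminal groups passed over basal-like nuclei, but not without adult replicate 2, whose basal-like value was the lowest. The log2 differences were 0.51 for mature luminal-like (edgeR adjusted p = 0.0117; 0.27 with 0.562 without adult replicate 2) and 0.45 for luminal progenitor-like over basal-like nuclei (edgeR adjusted p = 0.042; 0.12 with 0.859 without adult replicate 2). Socs2 had 145.6 and 115.7 CPM in mature luminal-like, 129.6 and 151.6 CPM in luminal progenitor-like and 102.6 and 113.2 CPM in basal-like nuclei, and passed in none of the 3 comparisons (log2 differences between 0.12 and 0.30). Socs2 passed in luminal progenitor-like over basal-like nuclei with classes 7, 11 and 8 alone (0.60, edgeR adjusted p = 0.00918). It also passed in luminal progenitor-like over mature luminal-like nuclei without reads in promoter regions (0.49, edgeR adjusted p = 0.0398).

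In luminal progenitor-like over basal-like nuclei 3 of 6 members passed, all higher, beside 22.5% of 17081 gene windows. In luminal progenitor-like over mature luminal-like nuclei 3 of 6 passed, 1 higher and 2 lower, beside 22.0%. In mature luminal-like over basal-like nuclei 5 of 6 passed, all higher, beside 32.5%. The shares of all gene windows under the settings that follow are not given here, so their counts describe the settings only. DESeq2 passed 1, 3 and 3 of 6 in these comparisons, the span alone 1, 3 and 3, and edgeR without the library block 1, 3 and 2. With classes 7, 11 and 8 alone the counts were 4 higher, 1 higher and 2 higher, and with classes 3, 2 and 1 alone 1 higher, 3 lower and 3 higher, so which members passed in the second comparison depended on the classes used. Over basal-like nuclei, the luminal progenitor-like calls of Stat5b and Stat6 and the mature luminal-like calls of Jak2 and Stat6 were lost in DESeq2, with the span alone and without the block. Without the block their edgeR adjusted p values were 0.0893, 0.135, 0.0507 and 0.0577, and the mature luminal-like call of Stat3 was lost too (0.0568). The members' median log2 differences were 0.36, -0.17 and 0.47, beside 0.013, -0.0017 and 0.022 over all windows.

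**Figure D3:**
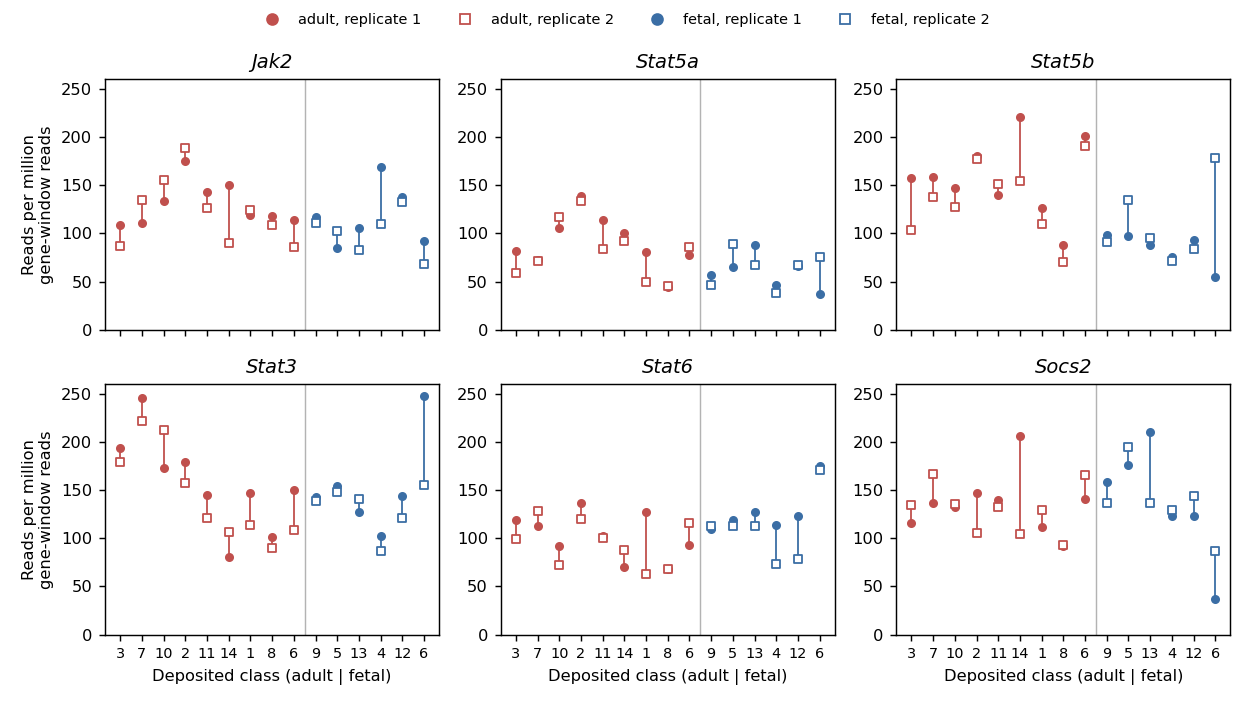
Reads per 1000000 gene-window reads (vertical axis) of the 6 genes in each class of adult and fetal nuclei (horizontal axis, adult classes on the left); filled circles are replicate 1 and open squares replicate 2. The Stat5a points of adult class 2 lie above those of fetal class 4, and the Stat3 points of adult class 7 above those of adult class 14.

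Over all 15 stage and class combinations with at least 20 nuclei in each library, Stat5a was highest in adult class 2 (135.9 CPM) and lowest in fetal class 4 (42.3 CPM), a ratio of 3.21. Its order from high to low was adult 2, 10, 11, 14 and 6, fetal 13 and 5, adult 7 and 3, fetal 12, adult 1, fetal 6 and 9, adult 8 and fetal 4. Of the 14 pairs of neighbours in this order, 11 overlapped. Stat5b ran from 195.5 CPM in adult class 6, the stromal class, to 73.4 CPM in fetal class 4, with 13 of 14 neighbours overlapping. Stat3 ran from 233.5 CPM in adult class 7 to 93.5 CPM in adult class 14, with 10 overlapping. Jak2 ran from 181.9 CPM in adult class 2 to 80.1 CPM in fetal class 6, with 13 overlapping, and Stat6 from 172.6 CPM in fetal class 6 to 68.1 CPM in adult class 8, with 12. Socs2 ran from 185.1 CPM in fetal class 5 to 62.0 CPM in fetal class 6, with 12. The fetal class 6 sums held only 4 to 47 reads per member and library.

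Of the 52 other pathway genes 50 were tested between adult classes. In luminal progenitor-like over mature luminal-like nuclei 20 passed, 14 higher and 6 lower, beside 22.0% of all windows, and targets and partners made up 11 of them, 10 higher and 1 lower. Csn3 (log2 difference 2.91), the casein gene Csn1s1 (2.47; 1.52 without adult replicate 1, not passing) and Elf5 (1.32), a luminal progenitor transcription factor that works with Stat5, were higher, as was Egfr (1.87). Csn3 and Elf5 are also among the luminal progenitor markers. Tnfsf11 (-1.22), the RANK ligand that mature luminal cells secrete, was lower but did not pass without adult replicate 1 (-1.02, edgeR adjusted p = 0.234) or 2 (-1.45, 0.0703). Prlr was also lower (-1.05), with 120.6 and 153.5 CPM in luminal progenitor-like, 287.4 and 280.6 CPM in mature luminal-like and 57.4 and 66.8 CPM in basal-like nuclei. In mature luminal-like over basal-like nuclei 21 passed, 11 higher and 10 lower, beside 32.5%. They included Prlr (2.12), Ptpn1 (1.39; 0.90 with classes 7, 11 and 8 alone), the epidermal growth factor receptor gene Egfr (-2.25), Pias4 (-1.14; -2.04 with the span alone), an inhibitor of STAT activity, and Igfbp5 (-1.09; -0.54 with 0.15 with classes 7, 11 and 8 alone), an insulin-like growth factor binding protein gene. In luminal progenitor-like over basal-like nuclei 18 passed, 12 higher and 6 lower, beside 22.5%, among them Elf5 (2.04), Ccnd1 (1.17), Pias4 (-1.17; -1.93 with the span alone), Csn1s1 (2.92; 1.85 without adult replicate 1, not passing, and 8.19 without adult replicate 2, a fitted value over 0 basal-like reads) and Csn3 (2.01; 1.61 without adult replicate 2, not passing).

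Distal regions were also compared between adult classes. Of the 60, 24 had enough reads in the class sums, a mean of at least 10 over all of them, fetal sums included. A region with many reads in a single group could reach that mean through this group, so tests of it against that group describe sizes only. The counts and medians below include such regions. In luminal progenitor-like over basal-like nuclei 5 passed, 4 higher, beside 24.5% of 39090 regions. In luminal progenitor-like over mature luminal-like nuclei 10 passed, 5 in each direction, beside 35.7%. In mature luminal-like over basal-like nuclei 12 passed, 8 higher, beside 47.4%. These counts depended on single libraries, and the shares of all distal regions under the other settings below are not given here. Without adult replicate 1 (21 regions tested) they were 2 higher and 1 lower, 3 and 1, and 4 and 3 in the same order. Without adult replicate 2 (18 tested) they were 2 and 1, 3 and 0, and 0 and 3. With scaling by total reads they were 4 and 1, 5 and 3, and 7 and 6. Without fetal replicate 1 or 2 the first comparison gave 8 higher and 1 lower, of 32 and 26 tested. The median log2 differences of the 24 were 0.89, -0.18 and 0.88. The regions described next were chosen for their reads or for the size of their change and do not stand for all 24. Their read counts are not scaled for the unequal read totals of the groups, while their log2 differences are. Over all distal regions the median log2 difference of the last comparison was 0.26 and became -0.0052 when libraries were scaled by total reads, and that of the second moved from -0.11 to 0.14, so differences of that size carry no direction.

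The Stat5b region chr11:100799041-100800040 had 81 and 116 reads in mature luminal-like nuclei (adult replicates 1 and 2), 2 and 0 in luminal progenitor-like and 0 and 0 in basal-like nuclei. Almost all of its reads came from a single class group. Against a floor of 6 reads (3 read pairs) over the basal-like group, it was at least 12.98-fold higher in mature luminal-like nuclei. The Stat5a region 11.4 kb after the start, chr11:100870284-100871283, had 66 and 85 reads in mature luminal-like, 18 and 5 in luminal progenitor-like and 0 and 0 in basal-like nuclei. It was at least 9.95-fold higher in mature luminal-like than in basal-like nuclei by the same floor, and lower in luminal progenitor-like than in mature luminal-like nuclei (log2 difference -2.69, edgeR adjusted p = 0.0089). The Stat5b region chr11:100825675-100826674 had 61 and 78 reads in mature luminal-like, 19 and 12 in luminal progenitor-like and 0 and 3 in basal-like nuclei. All 3 regions are among those nearly empty in fetal libraries. All 3 reached the filter on reads through their mature luminal-like reads, so their differences from that group describe sizes only.

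Another Stat5b region, chr11:100790760-100791759, had the opposite pattern, with 72 and 52 reads in luminal progenitor-like, 0 and 9 in mature luminal-like and 13 and 32 in basal-like nuclei. The region had 36.1 and 25.4 CPM in luminal progenitor-like and 18.7 and 19.8 CPM in basal-like nuclei, which did not pass (edgeR adjusted p = 0.48). Its luminal progenitor-like excess over mature luminal-like nuclei was 4.00 on the log2 scale (edgeR adjusted p = 4.15e-07), with 2.76 (0.0515) without adult replicate 1 and 8.42 without adult replicate 2, a fitted value over 0 mature luminal-like reads. The Stat3 region chr11:100946787-100947786, before the start of the gene, had 109 and 96 reads in luminal progenitor-like, 25 and 68 in basal-like and 8 and 3 in mature luminal-like nuclei. It was 4.31 higher in luminal progenitor-like than in mature luminal-like nuclei on the log2 scale (SE 0.54, edgeR adjusted p = 1.94e-13), and mature luminal-like nuclei were lower than basal-like ones (log2 difference -4.05, SE 0.57, edgeR adjusted p = 2.77e-11). The Stat3 region chr11:100898835-100899834 had 75 and 85 reads in luminal progenitor-like, 30 and 32 in mature luminal-like and 1 and 11 in basal-like nuclei. Its luminal progenitor-like excess over basal-like nuclei was 2.93 (edgeR adjusted p = 7.45e-05; 4.56 without adult replicate 2).

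Socs2, whose window passed in none of these comparisons, held 3 regions called between the luminal groups, 2 higher in luminal progenitor-like nuclei and 1 lower. The region chr10:95385545-95386544 had 26 and 38 reads in luminal progenitor-like, 2 and 2 in mature luminal-like and 2 and 18 in basal-like nuclei. Mature luminal-like nuclei were nearly empty there. The luminal progenitor-like excess was 4.07 on the log2 scale (SE 0.77, edgeR adjusted p = 2.08e-06). Fetal nuclei, where this region was higher, had 24 and 62 reads in class 9 and 9 and 44 in class 4. Scaled to reads in distal regions these were 20.6 and 22.6 CPM in class 9 and 22.0 and 34.5 CPM in class 4. The neighbouring region chr10:95388341-95389340 had 41 and 56, 6 and 4, and 1 and 21 reads in the 3 adult groups (luminal progenitor-like over mature luminal-like 3.34, edgeR adjusted p = 1.69e-04; 2.75 with 0.117 without adult replicate 2). That neighbouring region reached the filter on reads only through its luminal progenitor-like reads, so its difference describes sizes only. The lower one, chr10:95422291-95423290, was chosen after its values were seen and reached the filter on reads only through its mature luminal-like reads. It had 4 and 11, 53 and 69, and 2 and 8 reads (luminal progenitor-like over mature luminal-like -2.92, edgeR adjusted p = 0.00242). It was lost without adult replicate 1 (-2.37, 0.282) or 2 (-3.64, 0.117). In Jak2, chr19:29300512-29301511 was highest in basal-like nuclei, with 16 and 41 reads there, 3 and 2 in luminal progenitor-like and 5 and 6 in mature luminal-like nuclei. The luminal groups were lower by -4.28 (SE 0.89, edgeR adjusted p = 3.26e-05) and -3.35 (SE 0.80, edgeR adjusted p = 1.35e-04) on the log2 scale. This Jak2 region reached the filter on reads only through its basal-like reads, so these differences describe sizes only. Fetal class 4 had 16 and 40 reads there and fetal class 9 had 4 and 28. The Jak2 region chr19:29270682-29271681 ran the other way, with 58 and 63 reads in mature luminal-like, 23 and 11 in luminal progenitor-like and 2 and 3 in basal-like nuclei (mature luminal-like over basal-like 3.42, edgeR adjusted p = 3.65e-04; 3.22 with 0.0743 without adult replicate 2). The Stat6 region after the gene's end had 186 and 216 reads in mature luminal-like, 116 and 178 in luminal progenitor-like and 32 and 41 in basal-like nuclei. Its luminal progenitor-like excess over basal-like nuclei, 1.04 (edgeR adjusted p = 0.0052), was 1.79 without adult replicate 1 and 0.28 (0.796) without adult replicate 2.

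**Figure D4:**
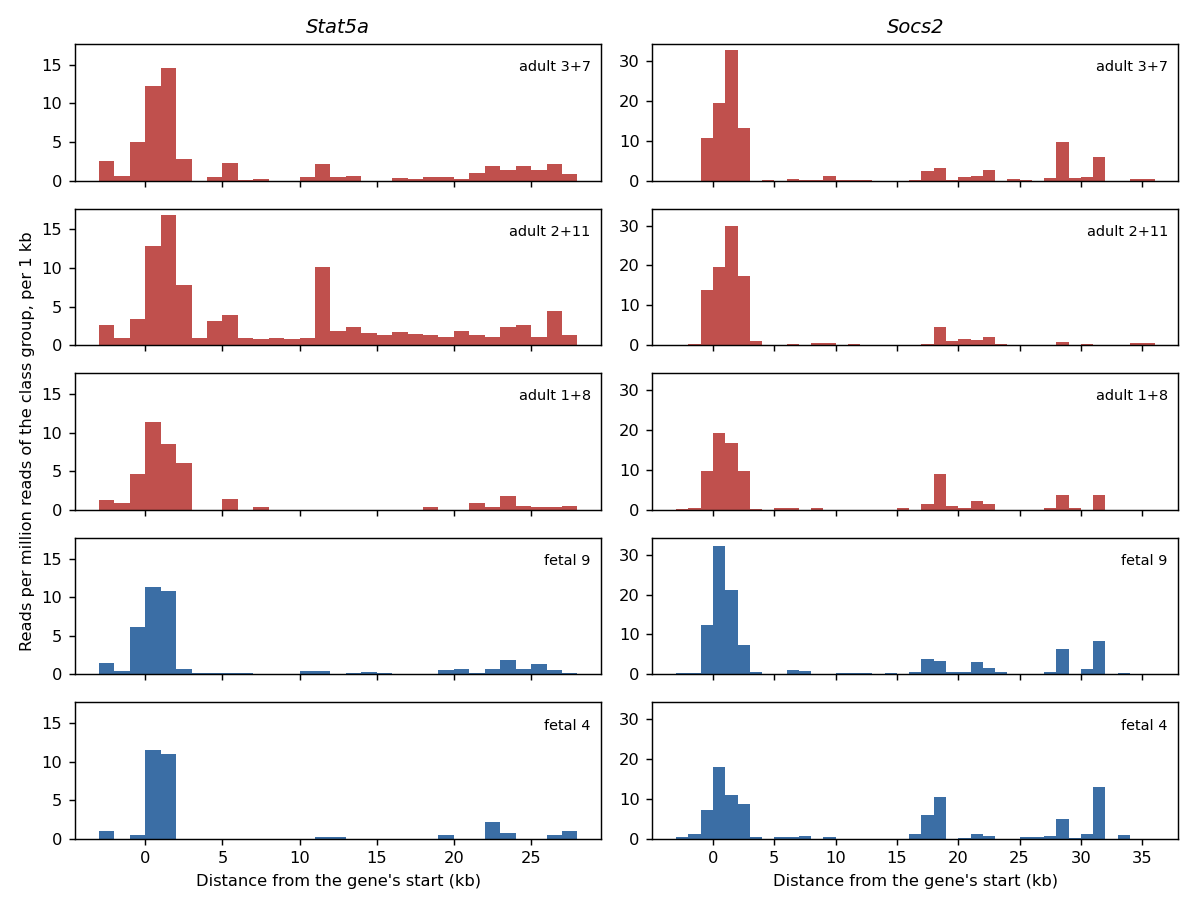
Reads per 1000000 in bins of 1 kb (vertical axis) against distance in kb from the start of Stat5a or the higher-coordinate end of Socs2 (horizontal axis), for adult luminal progenitor-like, mature luminal-like and basal-like nuclei and fetal classes 9 and 4, both libraries summed. In the Stat5a bin 11 kb after the start the value is 10.2 in mature luminal-like, 2.14 in luminal progenitor-like and 0 in basal-like nuclei. The bin at the start of the span lies between 11.3 and 12.9 in every group. The next bin, which holds the printed Stat5a start, has 14.5 in luminal progenitor-like and 8.56 in basal-like nuclei. In the Socs2 bin at 31 kb mature luminal-like nuclei have 0.14 and fetal class 4 has 12.99.

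Fetal classes were compared in the same way. Stat3 had 143.3 and 138.7 CPM in class 9, the class with luminal progenitor markers (fetal replicates 1 and 2), and 102.2 and 86.7 CPM in class 4, the class with basal markers. The groups did not overlap, and the log2 difference of 0.56 (SE 0.15) had an edgeR adjusted p of 0.0115, lost without the library block and without fetal replicate 2 (0.44, 0.281). It was the member that passed, 1 of 6, beside 7.69% of gene windows. Without reads in promoter regions Stat5a (1.15 against 0.28, edgeR adjusted p = 0.0285) and Jak2 (-0.72 against -0.26, 0.0302) passed too, and the Stat3 difference was 0.96. Between class 5 and class 9 the count was 0 of 6 by edgeR, beside 0.673%. Stat5a had 65.4 and 89.1 CPM in class 5 and 57.1 and 46.7 CPM in class 9, a log2 difference of 0.63 with an edgeR adjusted p of 0.14 (0.0022 before adjustment). Stat5a passed without fetal replicate 1 (0.92, edgeR adjusted p = 0.0391) and without reads in promoter regions (1.18, 0.0115). Socs2 had 175.8 and 194.5 CPM in class 5 and 158.0 and 136.3 CPM in class 9 (0.34, edgeR adjusted p = 0.42, 0.024 before adjustment). Between class 12 and class 4 the count was again 0 of 6 by edgeR, beside 1.00%. DESeq2 gave 0 of 6 in both comparisons. At an unadjusted p under 0.05 edgeR gave 2 of 6 in each, Stat5a and Socs2 in the first and Stat5a and Stat3 in the second. The shares of all gene windows at that threshold and in DESeq2 are not given here, so these counts describe the settings only. Of the 50 other pathway genes tested, 3 passed between classes 9 and 4 (Elf5 and Bcl2l1 higher, Egfr lower), 1 between classes 5 and 9 (Lif, lower) and 1 between classes 12 and 4 (Igfbp5, higher; lost without fetal replicate 2 at 0.72 with 0.32). Without fetal replicate 2, Elf5 (0.88, edgeR adjusted p = 0.161), Bcl2l1 (0.38, 0.24), Egfr (-0.52, 0.127) and Lif (-0.76, 0.126) did not pass either, and without fetal replicate 1 Elf5 (0.86, 0.0636) and Egfr (-0.51, 0.0681) did not.

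Stage was also compared inside similar classes. Fetal class 9 against adult luminal progenitor-like nuclei gave 2 lower members of 6, beside 10.6% of 17064 gene windows. Stat3 had 143.3 and 138.7 CPM in fetal class 9 and 228.6 and 201.8 CPM in the adult group, without overlap (log2 difference -0.63, SE 0.15, edgeR adjusted p = 0.0064; -0.65 with 0.0787 without fetal replicate 1 and -0.61 with 0.115 without fetal replicate 2). Stat5b had 98.6 and 91.0 CPM against 157.8 and 121.4 CPM (log2 difference -0.58, SE 0.17, edgeR adjusted p = 0.023). It was lost in DESeq2, without fetal replicate 1 (-0.64, 0.128) or 2 (-0.52, 0.24) and without adult replicate 1 (-0.38, 0.294). Stat5a, the member with the largest stage difference over whole libraries, had 57.1 and 46.7 CPM against 74.9 and 65.9 CPM and did not pass (log2 difference -0.48, edgeR adjusted p = 0.14). Fetal class 4 against adult basal-like nuclei gave 0 of 6 members by edgeR, beside 9.27%, with log2 differences of -0.49 for Stat5b (edgeR adjusted p = 0.12), -0.46 for Stat5a (0.26) and -0.34 for Stat3 (0.25). With the span alone Stat5b passed there (-0.87, edgeR adjusted p = 0.0302). The test of whether the stage difference itself differed between these luminal and basal pairs also passed for 0 of 6 members, beside 3.13%. These fits held no library term, so the class sums of a library counted as separate samples and their pairing was ignored. Cluster and stage largely coincide in these pairs, so they cannot be told apart. DESeq2 gave 0 of 6 for both, and at an unadjusted p under 0.05 edgeR gave 1 (Stat5b) and 0. The shares of all gene windows at that unadjusted threshold are not given here, so these counts describe the settings only.

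Of the 50 other pathway genes tested, 11 passed in fetal class 9 against adult luminal progenitor-like nuclei, 2 higher and 9 lower, beside the 10.6% of all windows. Of 13 receptor genes tested, 5 were lower and 1 higher. The lower ones included Osmr (log2 difference -1.25, edgeR adjusted p = 2.05e-05), Prlr (-1.24, 1.12e-04) and Il4ra (-1.04, 2.76e-04). Lifr was the higher one (0.53, edgeR adjusted p = 0.0143), lost without fetal replicate 1 (0.45, 0.176), fetal replicate 2 (0.62, 0.0723) or adult replicate 1 (0.53, 0.0502). In fetal class 4 against adult basal-like nuclei 10 passed, 3 higher and 7 lower, beside 9.27%, among them Il4ra (-1.38), Il13ra1 (-1.13) and Osmr (-1.01; lost without fetal replicate 2 at -1.19 with 0.0509). Il13ra1 was lost without fetal replicate 1 (-1.03, edgeR adjusted p = 0.0813), fetal replicate 2 (-1.35, 0.0962) or adult replicate 2 (-0.999, 0.0861). Csn3 was higher (1.89, edgeR adjusted p = 0.00657), but did not pass without fetal replicate 2 (0.70, 0.573) or with the span alone (0.98, 0.504). Tnfsf11 was higher too (1.44, edgeR adjusted p = 0.0186), and was lost without fetal replicate 1 (1.29, 0.115), fetal replicate 2 (1.68, 0.105) or adult replicate 1 (1.27, 0.0568).

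The motif scores, which the authors computed per nucleus with chromVAR, express how far a nucleus's reads in regions holding a motif lie above or below expectation. A column named for a STAT protein describes a DNA motif, not the binding of that protein, and some columns varied together. Over 7846 nuclei the Stat5a and Stat5b columns correlated with r = 0.76 and Stat3 with Stat5a with r = 0.52. Stat2 and Stat6 had r between 0.08 and 0.13 with the others. Nuclei are no replicates, so means per library were compared. The Stat5a motif scored -0.14 and -0.12 in fetal and 0.10 and 0.061 in adult libraries, a difference of -0.21 (SE 0.045, limma adjusted p = 0.0087; -0.19 with 0.0796 without adult replicate 1). The Stat6 motif scored 0.13 and 0.17 in fetal and -0.082 and -0.057 in adult libraries, a difference of 0.22 (SE 0.045, limma adjusted p = 0.0071; 0.21 with 0.0626 without adult replicate 1). The Stat2 motif was higher too (0.16, limma adjusted p = 0.028), and was lost without fetal replicate 2 (0.13, 0.0864), adult replicate 1 (0.17, 0.119) or adult replicate 2 (0.15, 0.144). In all 3 of 5 passed, beside 67.9% of 427 motif columns. Stat5b (-0.096, limma adjusted p = 0.12) and Stat3 (-0.11, 0.097) did not pass. A library mean mixes all classes, so class shares and changes within a class cannot be told apart in it. Stat6 scored 0.015 and 0.048 in fetal class 9, below adult luminal progenitor-like nuclei (0.15 and 0.24). Fetal class 4 had 0.24 and 0.15, beside 0.23 and 0.21 in adult basal-like nuclei. Stat2 was lower in class 9 (-0.063 and 0.053 against 0.14 and 0.24) and higher in class 4. Stat5a was lower in both fetal classes. These pairs were not tested.

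Within adults all 5 STAT columns scored lower in mature luminal-like nuclei than in either other group, the class group where the Stat5a and Jak2 windows were most accessible. The Stat5a motif scored -0.13 and -0.12 in mature luminal-like, 0.28 and 0.25 in luminal progenitor-like and 0.21 and 0.055 in basal-like nuclei. The Stat5b motif scored -0.24 and -0.25, 0.24 and 0.19, and 0.33 and 0.20 in the same order, and the Stat6 motif -0.42 and -0.50, 0.15 and 0.24, and 0.23 and 0.21. Luminal progenitor-like minus mature luminal-like differences lay between 0.39 (Stat5a) and 0.66 (Stat6), with 5 of 5 passing limma's test, beside 63.0% of all columns. The Stat3 difference, 0.50, was lost without adult replicate 1 (0.41, limma adjusted p = 0.0573). Mature luminal-like minus basal-like differences lay between -0.68 (Stat6) and -0.26 (Stat5a), with 5 of 5 passing, beside 77.5%. Without adult replicate 1 those of Stat3 (-0.37, limma adjusted p = 0.0656) and Stat5a (-0.18, 0.269) did not pass, and with classes 7, 11 and 8 alone that of Stat5a did not (-0.15, 0.148). Luminal progenitor-like and basal-like nuclei gave 0 of 5 by limma, beside 59.5%. They also gave 0 of 5 at an unadjusted p under 0.05, where the share of all columns is not given here. With classes 3, 2 and 1 alone Stat2 passed (0.22 against 0.098, limma adjusted p = 0.0153).

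In fetal nuclei class 5 stood above class 9 in 4 of 5 STAT columns, beside 31.4%. The Stat5b motif scored 0.18 and 0.25 in class 5 and -0.22 and -0.076 in class 9, a difference of 0.37 (limma adjusted p = 0.0030). The differences were 0.39 for Stat3, 0.36 for Stat5a and 0.25 for Stat6. Leaving out fetal replicate 2 ended the calls of Stat3 (0.28, limma adjusted p = 0.129), Stat5a (0.32, 0.0686) and Stat6 (0.22, 0.14), and leaving out fetal replicate 1 that of Stat6 (0.27, 0.0915). Between class 9 and class 4, 1 of 5 passed, Stat2, lower in class 9 (-0.29, beside 44.7%; -0.22 with 0.118 without fetal replicate 1). Class 12 scored higher than class 4 for Stat5b (0.31; 0.16 with 0.193 without fetal replicate 2) and Stat6 (0.18, limma adjusted p = 0.0497, lost on leaving out any library), 2 of 5, beside 32.1%. Without fetal replicate 1 Stat3 (0.54 against 0.29, limma adjusted p = 0.0233) and Stat5a (0.43 against 0.24, 0.0248) passed in that comparison, and Stat3 also with medians over nuclei (0.30, 0.0412). The Stat6 score of class 9 was lower than that of class 4 by -0.16 and passed only without the library block (limma adjusted p = 0.0447, against 0.057). In class 6, the stromal class, adult nuclei scored 1.29 for Stat2, 0.69 for Stat5a, 0.69 for Stat5b, 0.49 for Stat6 and 0.33 for Stat3, and fetal nuclei 1.02, 0.73, 0.74, 0.33 and 0.55.

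**Figure D5:**
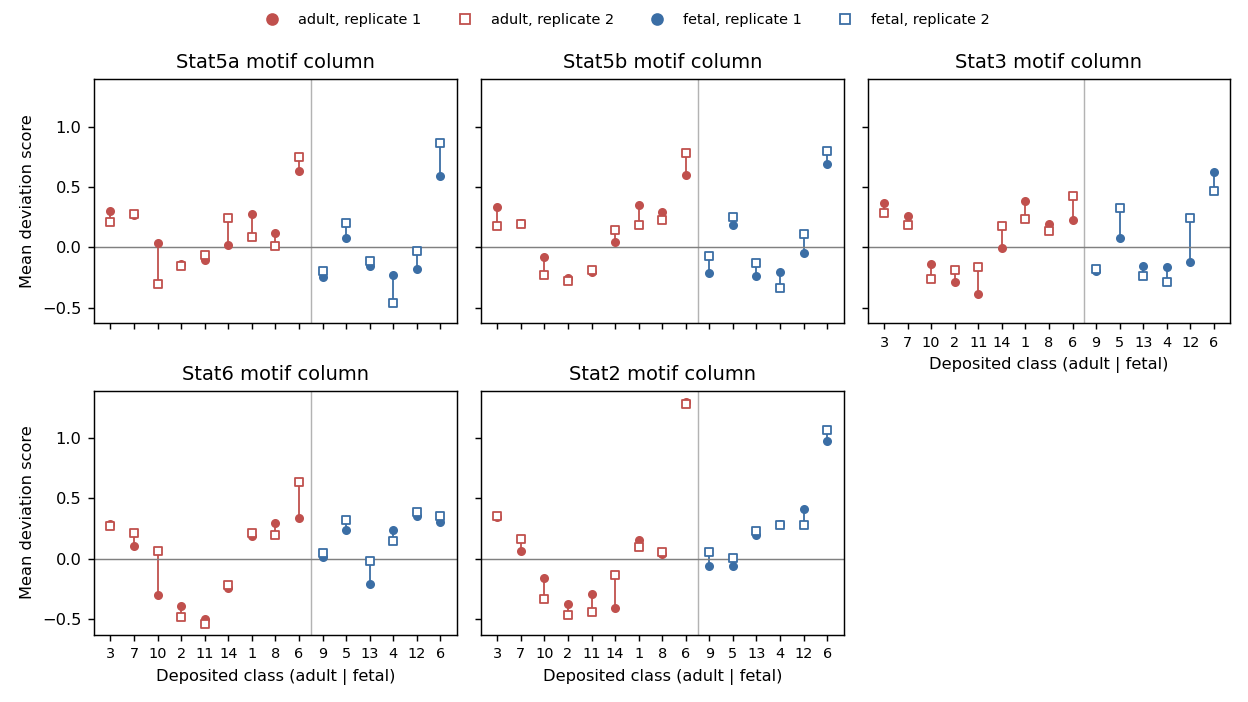
Mean chromVAR score per class and library (vertical axis, no unit) of the 5 STAT motif columns in adult and fetal classes (horizontal axis); filled circles are replicate 1 and open squares replicate 2. The Stat5a, Stat5b and Stat6 scores of adult classes 2 and 11 lie below those of classes 3 and 7.

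Genes whose windows followed each member most closely over the 14 library and class sums were found by Pearson's r over 13488 to 13517 windows at least 500000 bases away. The sums share 4 libraries, so r is a description. Stat5a was most like Wapl (0.90), Tnfrsf21 (0.89) and Kidins220 (0.89), and Stat5b like Tgm2 (0.93), Gucd1 (0.92) and Zfp62 (0.91). Stat3 was most like Trim65 (0.95), Dnajc8 (0.94) and Slc45a3 (0.93), and Stat6 like Zfp46 (0.92), Polr2h (0.91) and Atp5e (0.90). For Jak2 they were Plrg1 (0.89), P2rx6 (0.88) and Dnase1l3 (0.87), and for Socs2 Phf1 (0.90), Snx3 (0.90) and Prpf8 (0.88). Between 23 genes (Jak2) and 215 genes (Stat5b) reached r of 0.8.

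The authors' deposited table of co-accessibility scores pairs regions whose reads vary together across nuclei. In it, the promoter region at the Stat5a start and the Stat3 promoter region, 79.1 kb apart, scored 0.2762, and the Stat5a region and the Stat5b region 9.93 kb away scored 0.1258. In the authors' deposited table the best partners of the Stat3 and Stat5a promoters were other promoter regions, at scores of 0.313 and 0.2886. In the authors' deposited table the inner Socs2 promoter region scored best with a distal region 50.2 kb away (0.2554) and the outer one with a different distal region 79.7 kb away (0.2466). In the authors' deposited table the Stat6 promoter's best partner was a distal region 32.9 kb away (0.2854), and that of Jak2 a promoter region at 0.2087.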

How the data were processed

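Reads of single-nucleus ATAC-seq libraries were taken from the read lists the authors deposited, which give 1 interval and nucleus barcode per read, together with the authors' deposited nucleus lists, promoter and distal region lists of 1000 bases, classes, co-accessibility scores and chromVAR motif scores. The submitters' processing notes name Bowtie2, MACS2, bedtools and mm10, without roles. Reads are not given as normalized values: counts per gene window (span plus 2000 bases) and per region were made here from the deposited read intervals, for listed nuclei, summed per library or per library and class. The deposited motif scores, a score per nucleus computed by the authors, were averaged per library and class. Gene spans and promoter sequences come from RefSeq GRCm38.p6 tables.

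Sums with a mean of at least 10 reads were tested with edgeR 4.0.16 (quasi-likelihood, TMM scaling) and motif means with limma 3.58.1, in R 4.3.3, with Benjamini-Hochberg adjustment over all features tested and a threshold of 0.05. Library was a block in tests between classes, but not in the tests of stage inside similar classes or their interaction. DESeq2 1.42.0, other scalings, filters, windows, class choices and leaving out each library were tried as alternatives, and the script was tested on simulated data. CPM are reads per 1000000 reads in gene windows, promoter regions or distal regions. Almost every read has a second read of its nucleus within 1000 bases, so the floor for 0 reads is 6 reads (3 read pairs) over a group, and floors cover counting error only. Doublets were not called, and the nuclei are those the authors listed. Named are all 6 members, 5 STAT motif columns, for each member the regions with the most reads, the largest stage change and the largest change between adult classes, and list genes past the threshold with an absolute log2 difference of at least 1, at most 5 per comparison; other names were chosen after their values were seen. 1 item that the rule covers is not reported here. The members and lists were chosen with earlier results of these data known.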

Additional observations from a re-analysis of the deposited data

Results flagged for a closer look

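In 4 other genes of the pathway the stage difference itself differed between the luminal pair (fetal class 9 over adult luminal progenitor-like nuclei) and the basal pair (fetal class 4 over adult basal-like nuclei), by an interaction term in edgeR with Benjamini-Hochberg adjustment. The fit held no library term, so the luminal and basal sums of a library counted as separate samples and their pairing was ignored. For Prlr, the prolactin receptor gene, the luminal minus basal log2 difference was -1.17 (SE 0.31, edgeR adjusted p = 0.030). Prlr had 44.3 and 70.4 CPM in fetal class 9 and 120.6 and 153.5 CPM in adult luminal progenitor-like nuclei, against 53.9 and 66.6 CPM in fetal class 4 and 57.4 and 66.8 CPM in adult basal-like nuclei. The call was lost without fetal replicate 1 (-1.02, adjusted p = 0.204), fetal replicate 2 (-1.40, 0.171) and adult replicate 2 (-1.12, 0.0543), with the span alone (-1.13, 0.065) and in DESeq2 (-1.19, 0.069). For Ccnd1, the cyclin D1 gene, it was -1.13 (SE 0.27, edgeR adjusted p = 0.018), with 68.5 and 78.6 CPM in fetal class 9, 96.0 and 92.5 CPM in adult luminal progenitor-like, 65.3 and 72.5 CPM in fetal class 4 and 39.4 and 40.2 CPM in adult basal-like nuclei. It was lost on leaving out any of the 4 libraries, where adjusted p lay between 0.0515 and 0.195.

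For Lif, the leukaemia inhibitory factor gene, the log2 difference was -1.07 (SE 0.24, edgeR adjusted p = 0.0093), with 149.3 and 119.9 CPM in fetal class 9, 197.4 and 179.8 CPM in adult luminal progenitor-like, 130.5 and 118.6 CPM in fetal class 4 and 89.4 and 75.8 CPM in adult basal-like nuclei. It was lost without fetal replicate 1 (-1.17, adjusted p = 0.0795) or 2 (-1.001, 0.179). For Lifr, the receptor of that factor, it was 0.73 (edgeR adjusted p = 0.0496), with 198.1 and 176.0 CPM in fetal class 9, 126.3 and 127.4 CPM in adult luminal progenitor-like, 202.9 and 189.3 CPM in fetal class 4 and 201.1 and 228.4 CPM in adult basal-like nuclei. The Lifr call was lost on leaving out any of the 4 libraries (0.63 to 0.80, adjusted p between 0.0722 and 0.313), in DESeq2 (0.72, 0.0696) and with scaling by total reads (0.70, 0.0604). In all, 4 of the 50 pathway genes tested passed, beside 3.13% of all gene windows.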

How the results depend on the processing

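For some regions with few reads in a group, given in the text, fitted differences moved widely when a library was left out, and the fetal libraries held the fewest nuclei. Counts of gene windows or regions past the threshold that moved by over 1.5 times were as follows, with the main count in parentheses. The replicate block gave 6424 (4172) gene windows by stage and 890 (534) in the stage by class interaction, and dropping the library block gave 720 (1314), 41 (115) and 5 (171) between fetal classes 9 and 4, 5 and 9, and 12 and 4. DESeq2 gave 2622 (3992) promoter regions and 24873 (43423) distal regions by stage, 1154 (1805) gene windows in fetal class 9 over adult luminal progenitor-like nuclei and 1053 (1581) in fetal class 4 over adult basal-like nuclei. A mean of at least 50 reads, which tests fewer regions, gave 15301 (43423) distal regions by stage and 893 (9559), 1211 (13940) and 1581 (18542) in the adult class comparisons (luminal progenitor-like over basal-like, luminal progenitor-like over mature luminal-like, mature luminal-like over basal-like). Classes 7, 11 and 8 alone gave 3217 (5545) gene windows in the last of these. Total-read scaling gave 39 higher and 100 lower windows in fetal class 12 over 4, against 22 and 149.

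Leaving out each library in turn gave 1812 to 4459 gene windows, 2514 to 3057 promoter regions and 30355 to 42172 distal regions by stage. In the 3 adult comparisons in the order above it gave 1623 to 4745, 1422 to 4749 and 2745 to 6505 gene windows, and 2299 to 13530, 4649 to 19721 and 7507 to 24890 distal regions. Between fetal classes it gave 710 to 991, 67 to 82 and 44 to 219 gene windows, and 100 to 175, 40 to 121 and 78 to 125 motif columns. Inside similar classes it gave 517 to 1642, 178 to 1457 and 37 to 614 (interaction). An arm with 1 library left is assumed to vary like the others.

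Of 16 calls on members' windows, 4 held under every alternative and 49 of 196 alternative values lost the call, 20 of them by leaving out a library. Of 49 calls on regions 25 always held, and of 20 on STAT motif columns 8. In the other direction, results that did not pass gained a call in 14 of 454 alternative values for members' windows, 21 of 357 for the named regions and 5 of 102 for STAT motif columns. No called member window, region or STAT motif column changed direction; the inhibitor gene Ptpn6, called higher in luminal progenitor-like than basal-like nuclei, was at -0.14 from reads of a single window. The cause of these changes was not tested. Over 2 pairs, deviations of same-numbered fetal and adult libraries correlated in gene windows and motif scores, and hardly at all in promoter and distal regions. The r was 0.27 in gene windows, 0.0585 in promoter regions, 0.0401 in distal regions and 0.45 in motif scores. The labels give them a shared number and name nothing else in common, so the replicate block is an alternative. Replicate 2 had more nuclei and more reads per nucleus at both stages (medians of 7488 against 5535.5 in fetal and 5457.5 against 4420 in adult libraries). Under the block Stat3 (-0.32, edgeR adjusted p = 0.00306) and Jak2 (-0.25, 0.0237) also passed the stage test.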
